A study of Oryza sativa with 2 samples.

Results

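YABBY genes are plant-specific transcription factor genes of the lateral organs, and 7 members of the rice family, chosen by locus identifier, were compared between the young panicles of a wild-type line and of a mutant. They were 7 of the 57446 genes in the table. The samples were young panicles of rice (Oryza sativa) shorter than 2 cm, with 1 library of XD1B, the wild type, and 1 library of lf2, a mutant of LATERAL FLORET 2. The series title describes LF2 as an SNF2-type chromatin remodelling factor of spikelet axillary meristems. The nature of the lf2 allele, the number of panicles in a library and the genetic background of lf2 were not given in the sources used here. Sequencing depth was 29111345 fragments for XD1B and 27373727 for lf2. With 1 library for each genotype there was no replicate, so every difference below is a difference between 2 libraries and carries no p-value.

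YABBY proteins carry a zinc finger and a DNA-binding YABBY domain. Their genes are transcribed in the primordia of leaves, bracts and floral organs and are excluded from the meristem centre. In Arabidopsis several of them mark the lower side of lateral organs and act together with KANADI genes and opposite class III HD-ZIP genes. In grasses the link to one side of the organ is looser, and DROOPING LEAF (DL) has taken on carpel identity and the midrib of the leaf. TONGARI-BOUSHI1 (TOB1) is expressed in the lateral organs of the spikelet, the small floret-bearing branch of a grass panicle, and is needed to keep the spikelet meristem active.

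The members were DL (LOC_Os03g11600), YAB1 (LOC_Os07g06620), YAB2 (LOC_Os03g44710), YAB3 (LOC_Os10g36420), YAB4 (LOC_Os02g42950), TOB1 (LOC_Os04g45330) and YAB6 (LOC_Os12g42610). All 7 had an entry under a YABBY or DL name on the same chromosome and at a similar place along it in the RefSeq gene table of assembly ASM3414082v1. DL and YAB2 lie on chromosome 3, YAB4 on chromosome 2, TOB1 on chromosome 4, YAB1 on chromosome 7, YAB3 on chromosome 10 and YAB6 on chromosome 12. The numbering of the family is not uniform. RefSeq lists TOB1 as YAB5 and as OsYAB3, YAB3 also as OsYAB4, YAB4 also as OsYAB7 and YAB6 also as OsYAB5, so the locus identifier is the safer name. A further family member, YAB7 (LOC_Os07g38410), is outside the set and was listed at 0 in both libraries.

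All 7 members had a lower level in lf2 than in the wild type, and 6 of them were at least 2-fold lower. DL was the lowest relative to the wild type, with YAB2 next. YAB1, YAB3 and YAB4 lay together, and TOB1 and YAB6 were the least reduced. Levels are in FPKM, fragments per kilobase of gene length and per 1000000 fragments of the library. The 2-fold rule was a log2 ratio, log2((lf2 FPKM + 1)/(wild-type FPKM + 1)), of at most -1, taken over the 22150 measured genes, those that reached FPKM 1 in either library, as all 7 members did. Of those genes 8.23% passed the rule downwards, and 15.3% passed its mirror image upwards. The median log2 ratio was -1.17 over the members and -0.31 over all measured genes, of which 65.2% were lower in lf2. The tissue was measured in bulk, so fewer cells of a type and less RNA per cell cannot be told apart.

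DL, the carpel and midrib gene, stood at 40.3 FPKM in XD1B against 11.4 in lf2. This was a ratio of 0.282, with a 95% interval for counting error of 0.249 to 0.320, and a log2 ratio of -1.74. The interval was computed from 1194 and 317 fragments, recovered from the FPKM values. DL was thus at the far end of the table, since 47 of the 22150 measured genes had a log2 ratio that low. Among the 1000 genes closest to it in mean level, 0.2% did.

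YAB2, the rice counterpart of the sorghum shattering gene Sh1, stood at 34.3 FPKM in XD1B against 11.6 in lf2. Its ratio was 0.339 (0.301 to 0.381), from 1171 and 373 fragments, and its log2 ratio was -1.48. A log2 ratio that low was found in 0.749% of all measured genes and in 0.4% of the 1000 closest in level. YAB2 was below DL in the wild type. In lf2 they stood nearly level, at 11.6 FPKM for YAB2 and 11.4 for DL. No interval was computed for that gap, so their order in lf2 is not settled.

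YAB1, a gene linked in rice to feedback control of gibberellin synthesis, stood at 86.6 FPKM in XD1B against 37.8 in lf2. Its ratio was 0.437 (0.409 to 0.465), from 3259 and 1338 fragments. YAB4, a gene of vascular tissue, stood at 54.4 and 23.5 FPKM. Its ratio was 0.432 (0.391 to 0.478), from 1338 and 544 fragments. The 2 genes differ in level yet had almost the same ratio between the libraries.

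YAB3, a gene of leaf primordia, gave a value of the same size, at 40.6 FPKM in XD1B against 17.4 in lf2, a ratio of 0.429 (0.391 to 0.471) from 1565 and 632 fragments. The log2 ratios of YAB1, YAB3 and YAB4 were -1.17, -1.17 and -1.18. Between 3.72% and 3.74% of all measured genes were that low.

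TOB1, the spikelet meristem gene and the most abundant member, stood at 150 FPKM in XD1B against 74.4 in lf2. Its ratio was 0.495 (0.473 to 0.518), from 5889 and 2740 fragments. The log2 ratio of -1.01 lies just past the 2-fold rule, and the interval of the ratio reaches beyond 0.5. Of all measured genes 8.08% were that low, and of the 1000 genes closest in level 14.7%.

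YAB6, the least abundant member, stood at 13.5 FPKM in XD1B against 7.37 in lf2. Its ratio was 0.544 (0.475 to 0.622), from 649 and 332 fragments, and its log2 ratio of -0.80 did not reach the 2-fold rule. Log2 ratios that low were found in 17.0% of all measured genes and in 17.2% of those closest in level. The most and the least abundant members thus had the 2 highest ratios.

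**Figure D1:**
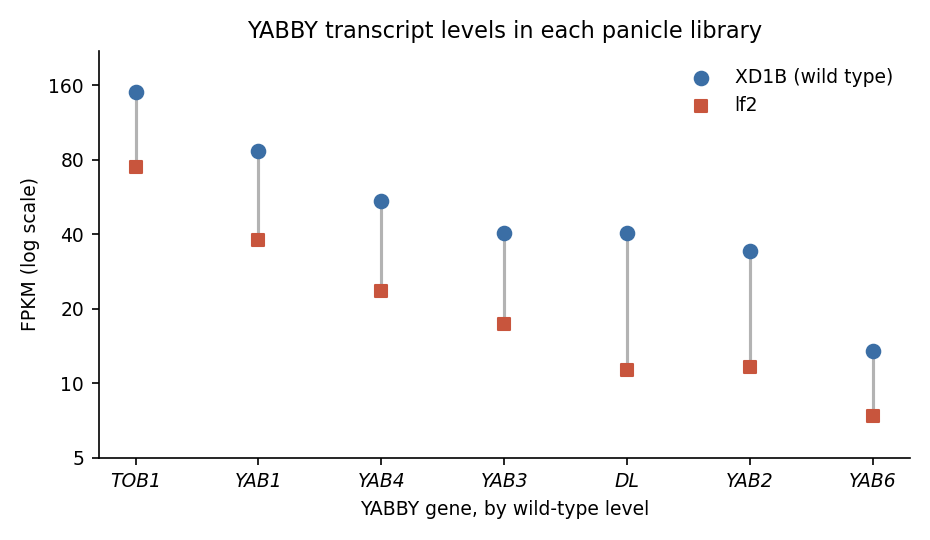
Levels of the 7 YABBY genes in FPKM on a log axis, with 1 point for each library, circles for XD1B and squares for lf2; the grey line joins the values of a gene. Every square lies below its circle, from TOB1 at 150 and 74.4 to YAB6 at 13.5 and 7.37.

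The order of levels was nearly the same in both libraries. In the wild type it ran TOB1, YAB1, YAB4, YAB3, DL, YAB2 and YAB6. In lf2 the values differed in order at DL and YAB2, which were nearly level there. In the wild type YAB3 and DL, at 40.6 and 40.3 FPKM, stood side by side, and in lf2 YAB2 and DL did, at 11.6 and 11.4. Over the family the summed level was 420 FPKM in XD1B against 184 in lf2, giving a ratio of 0.437 (0.424 to 0.450, counting error of the sum by the delta method). The make-up of that sum moved with the unequal ratios. TOB1 made up 35.8% of it in the wild type and 40.6% in lf2, DL 9.58% and 6.19%, and YAB2 8.17% and 6.34%. The shares of YAB1 were 20.6% in both libraries, and those of YAB4 were 12.9% and 12.8%.

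Members can be compared with each other in a way that no scaling of the libraries touches, since a common factor cancels in the ratio of 2 ratios. Of the 21 pairs of members, 17 had a 95% counting interval that excluded 1. DL was lower relative to each of the other members, from 0.833 times the ratio of YAB2 (0.700 to 0.992) to 0.519 times that of YAB6 (0.431 to 0.625). YAB2 was 0.776 times YAB1 (0.677 to 0.887). The 4 pairs whose interval included 1 were those among YAB1, YAB3 and YAB4 and the pair of TOB1 and YAB6. For YAB3 and YAB4 the value was 0.993 (0.865 to 1.14), and for TOB1 and YAB6 it was 0.910 (0.789 to 1.05). These intervals cover counting error only, and the spread between panicles was not measured.

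**Figure D2:**
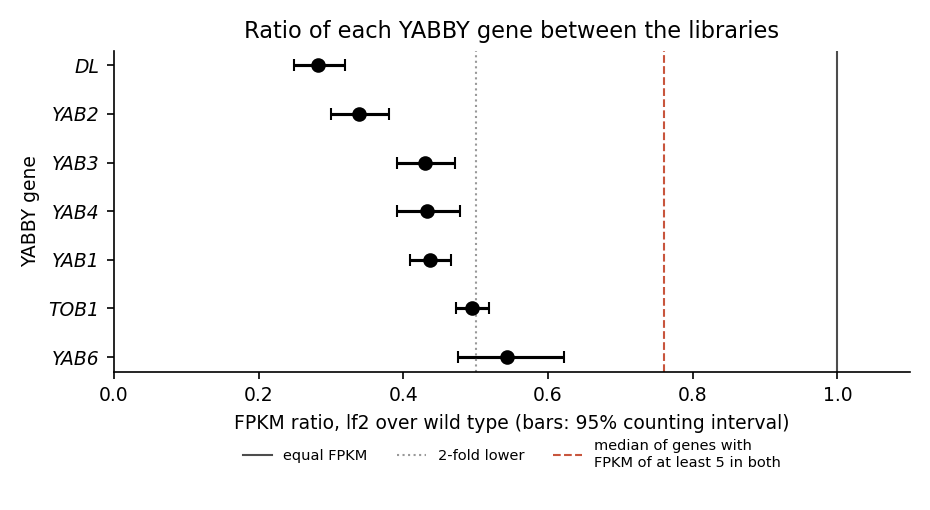
FPKM ratio of lf2 over the wild type for each YABBY gene, on a linear axis, with bars for the 95% counting interval; the solid line marks equal levels, the dotted line 2-fold lower and the dashed line the median of genes that reached FPKM 5 in both libraries. DL at 0.282 and YAB2 at 0.339 lie lowest, YAB1, YAB3 and YAB4 lie between 0.429 and 0.437, and all 7 lie below the dashed line.

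How far below the rest of the transcriptome the family stood depends on how the libraries are set against each other. The 13597 genes that reached FPKM 5 in both libraries were in the median lower in lf2, and bringing that median ratio to 1 multiplies every lf2 value by 1.32. The median log2 ratio of all measured genes then moved from -0.31 to 0.05 and that of the members from -1.17 to -0.79. On that scale 2 of the 7 members, DL at -1.37 and YAB2 at -1.12, were at least 2-fold lower, against 1.73% of the 22496 genes that then passed the filter. TOB1 was then at -0.61 and YAB6 at -0.44. All 7 members remained lower in lf2 on either scale. Among the 10682 genes whose mean level lay within the range of the members, 8.37% were at least 2-fold lower on the deposited scale, close to the share of all measured genes.

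**Figure D3:**
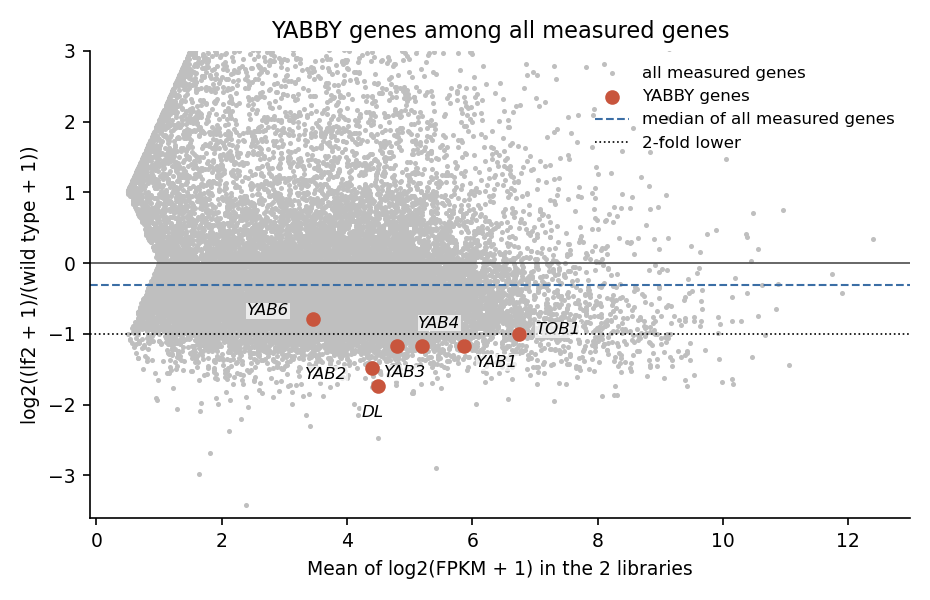
Log2 ratio of lf2 over the wild type against the mean of log2(FPKM + 1) for all 22150 measured genes (grey) and the 7 YABBY genes (red), with 1046 genes beyond the vertical limits not drawn. The members lie at or below the dotted 2-fold line except YAB6 at -0.80, and all lie below the dashed median of -0.31.

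Most genes beside the members on the chromosomes were not lower by as much. The 5 measured genes on each side of every member, 70 in all, had a median log2 ratio of -0.29. The 2-fold rule was passed downwards by 3 of them and upwards by 13. Over all measured genes the shares were 8.23% and 15.3% and the median was -0.31, so the neighbours were much like other genes. DL, YAB1, YAB2, YAB3, YAB4 and TOB1 were each lower than all 10 of their own neighbours, and YAB6 was lower than 8 of 10 (2 were as low or lower). Of all measured genes only 0.212% (DL) to 8.08% (TOB1) were as low as those 6 members. Their place below their neighbours is therefore not particular to these loci. The lowest neighbour was MADS1 (LOC_Os03g11614), the next measured gene after DL on chromosome 3, with 0 protein-coding genes between them in the RefSeq table. MADS1, which specifies lemma and palea and the floret meristem, stood at 190 and 73.2 FPKM, a log2 ratio of -1.36. The gene on the other side of DL, LOC_Os03g11590, stood at 9.74 and 28.4 FPKM. The other neighbours past 2-fold in the lower direction were LOC_Os10g36480 beside YAB3, at -1.05, and LOC_Os12g42700 beside YAB6, at -1.01.

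DL sets carpel identity, and DL and the B-class MADS-box gene MADS16 (SUPERWOMAN1) restrict each other to carpel and stamen whorls. Of the 3 B-class genes measured, MADS16 was not lower in lf2 and the other two were. MADS16 was at 48.1 FPKM in XD1B against 57.2 in lf2, a ratio of 1.19 (1.12 to 1.27). DL therefore stood at 0.837 times the level of MADS16 in XD1B and at 0.199 times in lf2, giving a ratio of ratios of 0.237 (0.206 to 0.273). MADS2 was at 57.1 and 34.1 FPKM and MADS4 at 15.3 and 6.56, and DL was lower relative to them as well, at 0.473 (0.411 to 0.544) and 0.659 (0.544 to 0.799). The balance of DL to MADS16 was the most altered of the 10 balances with MADS-box genes that were computed for DL.

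The ratios of MADS genes of the carpel and ovule lay nearer that of DL. MADS58, a C-class gene of floral meristem determinacy, stood at 4.93 FPKM in XD1B against 1.29 in lf2, and MADS13, the ovule identity gene, at 2.14 and 0.503. Relative to MADS58 the DL ratio was 1.08 (0.756 to 1.57) and relative to MADS13 it was 1.20 (0.692 to 2.20), so a difference was not detectable at this depth. MADS3, the C-class gene mainly of stamens, stood at 9.98 and 5.12, and DL was lower relative to it, at 0.550 (0.441 to 0.689). The E-class gene MADS7 and the AGL6-type gene MADS6 also gave intervals that included 1, with ratios of ratios of 0.948 (0.758 to 1.19) and 0.862 (0.720 to 1.03). Their recovered lengths, 255 and 422 bases, were the shortest of the 11 partners. Their fragments are therefore probably undercounted and these intervals too wide, so they cannot show that DL and these genes had equal ratios. Relative to MADS8, another E-class gene, at 59.4 and 24.4 FPKM, DL was lower, at 0.687 (0.590 to 0.798). Against MADS1, its neighbour, DL was lower, at 0.731 (0.639 to 0.835). The sterile lemma gene G1, a gene of lateral organs of the spikelet, was at 20.5 and 5.63 FPKM, and the DL ratio relative to it was 1.03 (0.813 to 1.31).

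Over the 11 floral partners of DL as a list, 7 passed the rule downwards and 0 upwards, and the median log2 ratio was -1.11. The shares of all measured genes were 8.23% downwards and 15.3% upwards. By log2 ratio with the pseudocount of 1, the largest differences in it were MADS7, at 72.6 and 21.6 FPKM, and MADS6, at 83.3 and 27.3. By the plain FPKM ratio the low-level genes MADS13, at 0.235, and MADS58, at 0.262, were below MADS7, at 0.298. MADS34, a gene of spikelet meristem identity, was close to equal at 87.4 and 83.4 FPKM. With the median ratio set to 1, MADS34 turned to higher in lf2 (log2 ratio 0.32), 9 of the 11 genes stayed lower and 3 passed the 2-fold rule.

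Genes of a leaf and organ polarity list were lower as well, in the median by less than the YABBY genes. Of 7 measured genes of this polarity list (8 in all), 7 were lower in lf2 and 2 passed the 2-fold rule, beside 65.2% and 8.23% of all measured genes. Their median log2 ratio was -0.74. The largest difference with a matched name was HOX29, a class III HD-ZIP gene, at 2.93 and 0.863 FPKM. Gene by gene the lists overlapped, since the plain ratio of HOX29, 0.295 (0.212 to 0.404), was below those of all YABBY members except DL. The class III HD-ZIP genes, which specify the upper side, had log2 ratios between -1.08 and -0.70. HB1, the gene of this class known from the related mutant lateral floret 1, stood at 101 FPKM in XD1B against 61.7 in lf2. The KANADI-type gene SLL1, of the lower side, was at 8.55 and 5.05 FPKM, giving a ratio of 0.591 (0.499 to 0.698). Relative to the summed level of the 5 class III HD-ZIP genes, the summed YABBY level was 0.829 in XD1B and 0.623 in lf2, giving a ratio of 0.752 (0.726 to 0.779). Among single members, TOB1 relative to HB1 went from 1.49 to 1.21, and YAB3 relative to SLL1 from 4.75 to 3.45. Not every balance of TOB1 moved down, since relative to MADS1 it went from 0.793 to 1.02, a ratio of ratios of 1.28 (1.20 to 1.37).

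KNOX genes mark the meristem, where YABBY genes are not transcribed. All 5 measured KNOX genes of 6 were lower in lf2 and 1 passed the 2-fold rule, the median log2 ratio being -0.50. For all measured genes the shares were 65.2% lower and 8.23% past the rule downwards. OSH1, the marker of indeterminate cells, stood at 86.6 FPKM in XD1B against 60.7 in lf2, OSH6 at 64.2 and 28.4, and OSH15 at 134 and 76.3. The YABBY sum was 1.33 times the KNOX sum in XD1B and 0.978 times in lf2, giving a ratio of 0.734 (0.705 to 0.763). TOB1 relative to OSH1 stood at 1.74 and 1.23. With the median ratio set to 1, 4 of the 5 KNOX genes stayed lower and 0 passed the 2-fold rule. The ratio of sums does not depend on scaling but is weighted towards the abundant genes OSH15 and OSH1. Gene by gene the families overlapped, since the ratio of OSH6, 0.441, was below those of TOB1, 0.495, and YAB6, 0.544.

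The meristem size and identity list (8 genes, 7 measured) went both ways, with 4 lower and 3 higher and a median log2 ratio of -0.53, which turned to 0.061 over the 5 measured genes with a reference match. Among the lower genes, the receptor kinase gene FON1 was at 2.91 and 1.60 FPKM and the homeobox gene WOX4 at 5.41 and 3.44. Among the higher or nearly equal genes, RFL, the rice counterpart of LEAFY, was at 90.1 and 94.0 FPKM, and LOG, a cytokinin-activating enzyme gene, was at 6.70 and 13.6. TOB1 had 1.67 times the level of RFL in the wild type and 0.792 times in lf2. Of the spikelet organ identity list 3 of 4 genes were measured, all lower (2 of 3 with the median ratio set to 1). The smallest difference, a log2 ratio of -0.01, was close to equal. G1 passed the 2-fold rule. The list median was -0.72, and G1, at -1.70, was the only measured gene with a reference match. Beside both lists, 65.2% of all measured genes were lower and 8.23% passed the rule downwards.

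**Figure D4:**
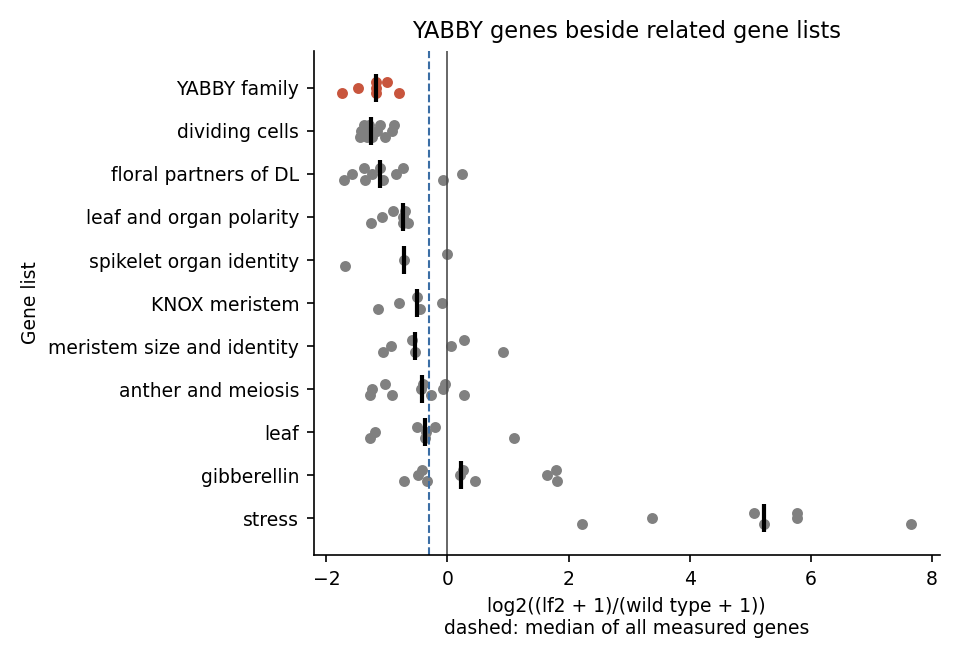
Log2 ratio of lf2 over the wild type for each measured gene of the YABBY family (red) and of related lists (grey), with black bars for list medians and a dashed line for the median of all measured genes at -0.31. The YABBY genes lie between -1.74 and -0.80, a range that overlaps those of all other lists drawn except the gibberellin and stress genes, and lies far from the stress genes.

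YAB1 and YAB4 have been tied to gibberellin in rice, and genes of that hormone were set beside them. Of 10 measured genes of 12, 4 were lower and 6 higher, and 0 passed the rule downwards and 3 upwards. Among all measured genes 65.2% were lower, 8.23% passed the rule downwards and 15.3% upwards. The median log2 ratio was 0.23, and its direction turned, to -0.33, over the 7 measured genes with a reference match. GA20ox2, an enzyme gene of gibberellin synthesis, stood at 3.70 FPKM in XD1B against 15.4 in lf2, and the receptor gene GID1 at 58.5 and 186. Early synthesis genes went both ways. CPS1, at 1.45 and 0.819 FPKM, and KO2, at 10.1 and 6.95, were lower. KS1 was higher, with 30.8 FPKM in XD1B against 35.6 in lf2. The F-box gene GID2 was lower, at 169 and 103. SLR1, the DELLA repressor of the pathway, stood at 156 and 124, and its direction turned with the median ratio set to 1 (log2 ratio 0.06). YAB1 was 23.4 times the level of GA20ox2 in the wild type and 2.45 times in lf2, and YAB4 was 14.7 and 1.52 times. Against SLR1 the change was smaller, from 0.556 to 0.305 for YAB1 and from 0.349 to 0.190 for YAB4.

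Genes of dividing cells were lower in lf2 by about as much, in sum, as the YABBY genes. All 12 were lower in lf2 and 10 passed the 2-fold rule, beside 65.2% and 8.23% of all measured genes. Their median log2 ratio was -1.27, and their summed level was 1169 FPKM in XD1B against 509 in lf2. With the median ratio set to 1, 12 stayed lower and 2 passed the 2-fold rule, as 2 of the 7 YABBY genes did. Relative to the dividing cell sum the YABBY sum was 0.359 in XD1B and 0.361 in lf2, giving a ratio of 1.003 (0.969 to 1.04). The largest differences in the list were MCM6, at 46.0 and 16.3 FPKM, and MCM5, at 67.4 and 24.6, both of the replicative helicase. The part of cell division in the YABBY result was not tested.

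**Figure D5:**
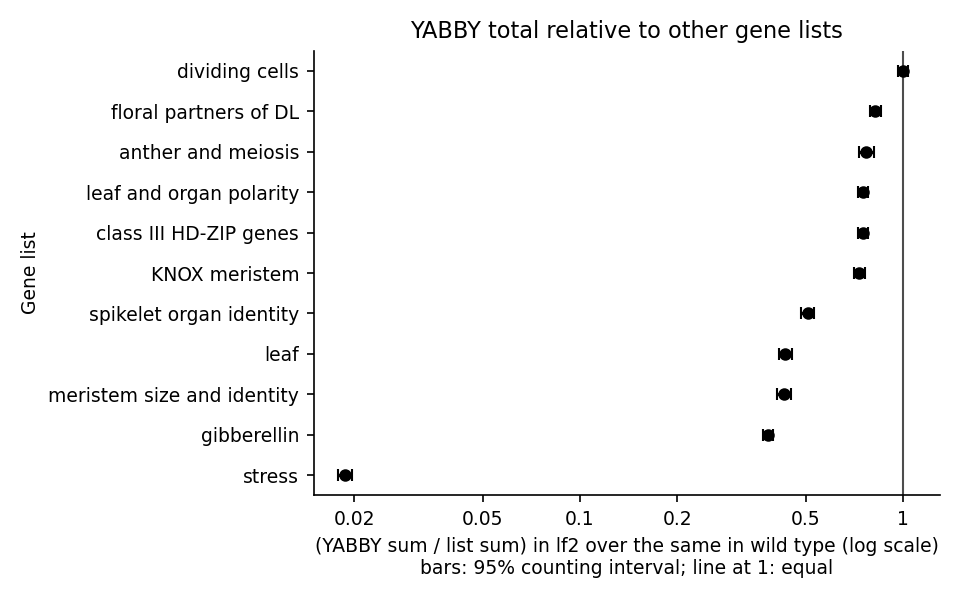
Summed YABBY level divided by the summed level of another list, given as the value in lf2 over the value in the wild type on a log axis, with bars for the 95% counting interval and a line at 1 for no difference. The value is 1.003 for the dividing cell genes, 0.822 for the floral partners of DL, 0.734 for the KNOX genes and 0.0188 for the stress genes.

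Lists of stress, anther and meiosis, and leaf genes were also compared. The medians of the anther and leaf lists lay near that of all measured genes, -0.31. The counts of these lists stand beside shares of all measured genes of 65.2% lower, 8.23% past the rule downwards and 15.3% upwards. The stress list of jasmonate repressor and heat shock genes was higher in lf2 for 7 of 7 genes, each past 2-fold, and its sum was 39.0 FPKM in XD1B against 909 in lf2. TIFY11C stood at 0.0777 and 217 FPKM, TIFY11A at 0.0659 and 57.3, and HSP101 at 26.5 and 128. Anther and meiosis genes, which follow panicle stage, summed to 113 and 64.2 FPKM. Of 10 measured of 14, 9 were lower and 3 passed the 2-fold rule, and their median was -0.43. With the median ratio set to 1, 6 of those 10 and 4 of the 7 leaf genes were lower. The log2 ratios of the measured anther and meiosis genes ran from -1.28 to 0.28. PAIR1, a gene of meiotic chromosome pairing, was the lowest of them, at 8.42 and 2.88 FPKM. C6 and EAT1 were under FPKM 1 in both libraries, C6 with 7 and 0 fragments and EAT1 with 6 and 17. The leaf list summed to 197 and 199 FPKM, with 6 of 7 measured genes lower, the 2-fold rule passed by 2 downwards and 1 upwards, and a median of -0.37. The near-equal sums rest on PORA, a chlorophyll synthesis gene, at 50.4 and 109 FPKM. RBCS, a defining leaf gene, was near 0 in both libraries, at 0.224 and 0.153 FPKM, while RCA, the activase gene, stood at 7.80 and 2.63 and the antenna gene CAB1R at 50.0 and 21.2. The part of stress or stage in the YABBY values was not tested, and with 1 library of each genotype neither can be told apart from the genotype.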

How the data were processed

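The authors deposited 1 table of FPKM values per gene, with a column for each of the 2 libraries; the unit is named per the file name and the columns carry the genotypes. Aligner, counting tool, genome build and filters were not given in the sources used here. Library totals, 29111345 and 27373727 fragments, were recovered from the 300 lowest values of each library, and whole fragments per gene (tolerance 1e-05 plus 2e-08 of the number) as the smallest pair that gives both FPKM values, a lower bound because a common factor cannot be seen. Intervals are exact Clopper-Pearson (ratios), exact conditional (ratios of ratios) or delta-method (sums) 95% intervals and cover counting error only. The procedure was tested on simulated data.

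The members and lists were chosen with earlier results of these data known, and the lists and their locus identifiers were written from background knowledge. Symbols of 83 of 98 list genes, the members included, matched the RefSeq table by name, chromosome and order; the other genes stayed in the lists unnamed. Named genes are the members, YAB7, up to 2 genes of largest log2 ratio in each list, a fixed set of partner genes, and neighbours past 2-fold. LOG, RFL, FON1, WOX4, MADS2, MADS4, MADS8, MADS34, MADS58, GID1, GID2, CPS1, KS1, KO2, HSP101, PORA, RBCS, C6 and EAT1 were named after their values were seen. Sequences were not used here. Alternatives were other pseudocounts (0.1 and 5), no filter, FPKM of at least 5 and 3 rescalings. Calculations used scipy 1.17.1, pandas 2.3.3 and numpy 2.4.6 under Python 3.11.15, and plots matplotlib 3.10.9.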

Additional observations from a re-analysis of the deposited data

How the results depend on the processing

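All 7 members were lower in lf2 under each of the 7 settings run for them. DL and YAB2 passed the 2-fold rule under all of these, YAB6 under none, and TOB1 lost it with a pseudocount of 5 and under all 3 rescalings. Rescaling to a median ratio of 1, which multiplies every lf2 value, left 2 members at least 2-fold lower, brought their median to -0.79 and left 389 genes at least 2-fold lower. The latter were 2978 with a pseudocount of 0.1 and 648 with 5. The summed YABBY ratio was 0.575 with a median ratio of 1, 0.457 with sums of 1000000 and 0.464 with the upper quartile. Doubling the gene length, and so the fragments, left the count of separated pairs at 17. YAB7 did not reach FPKM 1, so adding it changed nothing. With list genes matched in the reference table, a setting chosen after seeing the data, the median of the meristem size list turned to 0.061 and that of the gibberellin list to -0.33, with fewer genes by construction. In the same setting the median of the spikelet organ identity list moved from -0.72 to -1.70, the value of G1 alone. Depth limits MADS13, at 77 and 17 fragments. No paired analysis was possible because each genotype had 1 library, and no replicate could be left out.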
